A study of Mus musculus with 4 samples.

Results

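The genes described here are Runx1, Runx2 and Runx3, the 3 mouse members of the Runx family, and Cbfb, their shared partner. They were taken by symbol from the gene lists of both libraries, and they are 4 of the 31053 genes counted. RUNX proteins are transcription factors that bind DNA through the Runt domain. CBFβ, the product of Cbfb, does not bind DNA itself but raises the affinity and stability of RUNX proteins on DNA. In the thymus RUNX factors act from the earliest progenitor stages, Runx1 is needed at several early steps, and Runx3 is known for its part in CD8 T cells and innate lymphocytes. Runx2 is best known for bone formation and is also made in blood progenitors and plasmacytoid dendritic cells.

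The cells were mouse bone marrow progenitors that developed towards T cells on OP9-Dll1, a stromal line that presents a Notch ligand, with IL-7 and Flt3-ligand at 10 ng/ml each. All donor mice carried a Bcl2 transgene. The submitters' design names 4 kinds of culture: MSCV-Runx1-mCherry or empty MSCV vector in cells of B6.Bcl2 mice of 8 to 10 weeks, and, in B6.Cas9;Bcl2 cells, E42 guide vectors against Runx1 and Runx3 (3 guide pairs per gene) or control guides against luciferase. Vectors went in on day 2. Overexpression cultures were taken on days 4 and 6 and double knockout cultures on days 5 and 8, as cells sorted for the vector reporter, CD45 and no lineage marker. The labels give experiment 1 as 4 to 5 days of culture and experiment 2 as 4 to 8 days, and call the cells Phase 1 pro-T cells with high cKit.

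Each experiment was 1 pooled 10x library of mRNA with 1 library of hashtags, the oligo tags on antibodies that mark the culture of origin. Hashtags are numbered by their order in the tables. What each stands for is not given in the labels, so no hashtag is called overexpressing, knockout or control, hashtags are not replicates, and no test between them was made. Counts of unique molecular identifiers (UMIs) do not show whether a Runx1 molecule came from the vector or the mouse gene, nor whether a guide had broken its reading frame. After filtering, 8797 single cells of experiment 1 and 8335 of experiment 2 had 1 clear hashtag, with 691 to 1291 and 855 to 1312 cells per hashtag and median depths of 24753 and 26338 UMIs. The barcode sequences of 28 single cells occurred in both experiments. Levels are UMIs of a hashtag scaled to a total of 1000000 (CPM) with exact 95% Poisson intervals, and these, like all intervals here, cover counting error only.

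The pro-T label was checked against markers. Clusters marked by Bcl11b, Thy1 and Il2ra, called pro-T-like, held 561 cells in experiment 1 and 1211 in experiment 2. Pro-T markers were also among the leading genes of unnamed clusters. Cluster 5 of experiment 1 (1499 cells) had Il2ra and Thy1. In experiment 2 cluster 5 (802 cells) had Il2ra, Tcf7 and Thy1, and cluster 3 (861 cells) Tcf7, Gata3 and Kit. The named clusters are therefore no count of all pro-T cells. Cells holding markers of another cell type made up 23.2% of single cells in experiment 1 and 43.7% in experiment 2, and between hashtags this share ran from 9.02% to 36.2% and from 12.3% to 63.2%. The dendritic list, which holds the MHC class II genes, was met by 15.6% and 28.8% of cells, and the granulocyte or monocyte list by 8.88% and 17.1%.

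RefSeq promoters, reaching 250 bases upstream and 50 downstream of a start site on GRCm38.p6, matched all 4 genes. Runx1 and Runx3 each have a distal and a proximal entry. The 3 Runx genes are shown because 1 promoter of each carries the same 18-base run with a pair of Runx motifs in it. The motif searched was TGTGGT with its reverse complement ACCACA, the core letters that RUNX proteins recognise, on both strands with overlaps allowed. Each stretch below is 30 bases on the gene's strand, 5′ to 3′, with motif copies in capitals.
Runx1: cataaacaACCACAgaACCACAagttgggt
Runx2: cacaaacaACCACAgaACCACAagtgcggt
Runx3: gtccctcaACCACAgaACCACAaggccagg
The Runx1 stretch lies at chr16:92826025-92826054 on the minus strand, bases 21 to 50 after the distal start. The Runx2 stretch lies at chr17:44814583-44814612 on the minus strand, bases 16 to 45 after the start. The Runx3 stretch lies at chr4:135120503-135120532 on the plus strand, 142 to 113 bases before the distal start, so the pair sits inside the transcript of Runx1 and Runx2 but upstream of that of Runx3. The 18-base run was found as the longest one shared by a promoter of each Runx gene, so that these genes hold it was given. Of 32851 RefSeq promoters of this length, 3 (0.00913%) hold the run, and none belongs to another gene. A single motif is common: 16.8% of promoters hold at least 1 copy and 1.81% at least 2. The proximal entries of Runx1 and Runx3 and the promoter of Cbfb (chr8:105170424-105170723, plus strand) hold none. A match is a run of letters and was not tested as a binding site.

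Runx1, which the design overexpressed in some cultures and targeted in others, had the widest range between hashtags in experiment 1. In experiment 1 it was at 76.9, 79.4, 38.2, 39.3, 96.5, 85.8, 240.8 and 210.0 CPM in hashtags 1 to 8. Hashtags 7 and 8 stood above the rest and hashtags 3 and 4 below, with a highest-to-lowest ratio of 6.30 (95% interval 5.91 to 6.72). In experiment 2 the levels were 57.5, 33.7, 52.9, 39.5, 58.8, 102.1, 86.7 and 120.9 CPM. Hashtags 8 and 6 were highest and hashtags 2 and 4 lowest there, a ratio of 3.59 (3.33 to 3.86), whose interval overlapped that of Runx2 below.

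Runx3, targeted together with Runx1 in the knockout arm, was the most abundant of the 4 genes in 6 of 8 hashtags of experiment 1 and in all 8 of experiment 2. The assay tags 1 end of each transcript, so UMIs were not divided by length, and the comparison between genes takes their capture as equal. Its levels in experiment 1 were 146.1, 143.4, 115.1, 118.5, 170.7, 171.2, 181.2 and 179.3 CPM. In experiment 2 they were 117.1, 95.3, 136.5, 74.7, 127.2, 138.2, 127.2 and 144.7 CPM. The highest-to-lowest ratio was 1.57 (1.504 to 1.65) in experiment 1 and 1.94 (1.83 to 2.05) in experiment 2, with hashtag 4 lowest in the latter.

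Runx2, which no vector targeted, was the least abundant and still moved over a 3.18-fold range (2.78 to 3.64) in experiment 1. Its levels there were 27.6, 27.4, 13.8, 11.8, 23.0, 25.8, 37.1 and 37.4 CPM, lowest in the same pair of hashtags that were lowest for Runx1. In experiment 2 they were 21.8, 13.0, 18.0, 11.3, 23.7, 37.0, 13.7 and 23.1 CPM. Hashtag 6 stood highest there, 3.26-fold (2.86 to 3.73) above hashtag 4. Without hashtag 6 that ratio was 2.09. In hashtag 7 of experiment 2 Runx1 was among the 3 highest levels and Runx2 among the 3 lowest.

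Cbfb was the flattest gene of the set. It stayed between 60.03 and 69.5 CPM over the hashtags of experiment 1, and its highest-to-lowest ratio was 1.16 (1.08 to 1.24). In experiment 2 it stayed between 37.2 and 44.7 CPM with a ratio of 1.201 (1.10 to 1.31). The summed Runx level therefore moved against a nearly fixed partner transcript. For each Cbfb UMI there were 2.41 to 7.13 Runx UMIs in the hashtags of experiment 1, and 2.81 to 7.15 in those of experiment 2. Runx3 supplied 57.3% to 69.9% of Runx UMIs in hashtags 1 to 6 of experiment 1, and Runx1 supplied 52.4% and 49.2% in hashtags 7 and 8. In experiment 2 Runx3 was the largest part in every hashtag, from 49.8% to 67.1%.

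**Figure D1:**
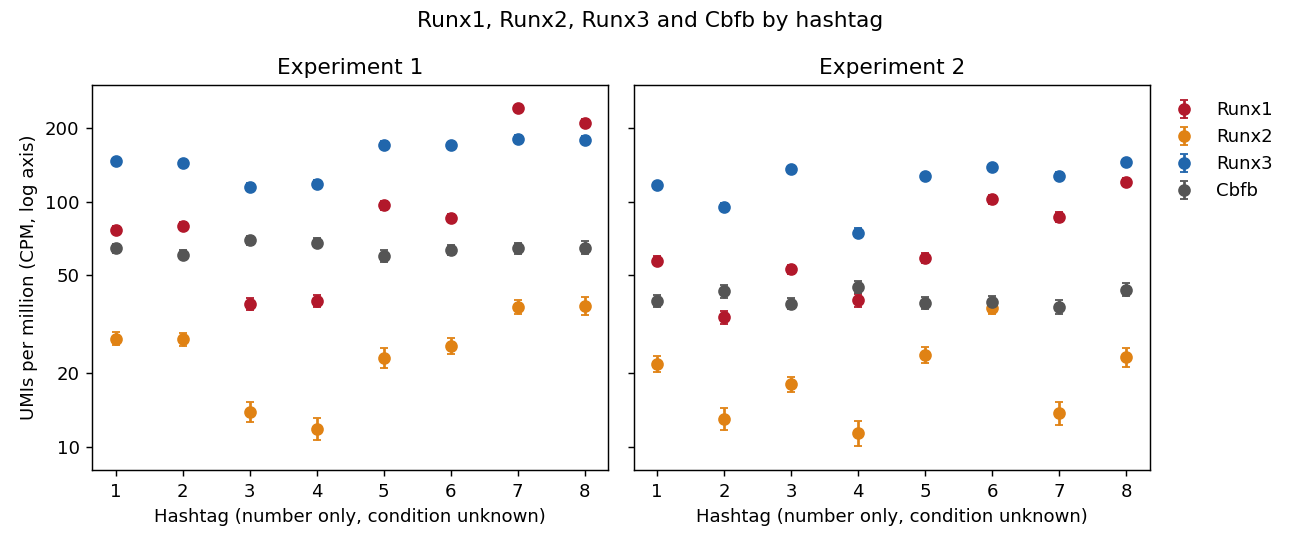
Levels of Runx1, Runx2, Runx3 and Cbfb in CPM on a log axis for the 8 hashtags of each experiment, with exact 95% Poisson intervals as bars, many smaller than the points. Cbfb forms a flat row in both panels, while Runx1 spans 38.2 to 240.8 CPM in the first panel and 33.7 to 120.9 CPM in the second.

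Fewer expressing cells and less RNA per cell cannot be told apart in summed counts, so the counts per cell were examined. Spread between cells was measured as variance beyond Poisson counting, scaled to the squared mean. For Cbfb it was low, from -0.00621 to 0.0801 in experiment 1 and from 0.0367 to 0.127 in experiment 2. For Runx1 it was 0.216 to 0.932 in experiment 1. In experiment 2 it was 0.247 to 1.27 in 7 hashtags and 6.27 in hashtag 4. That last value rests on 1 cell with 81 Runx1 UMIs among 16444, where the next highest cell of the hashtag had 17. Leaving out the top cell of each hashtag moved Runx1 in hashtag 4 from 39.5 to 36.4 CPM. The medians over all genes of at least 20 CPM ran from 0.0546 to 0.134 between hashtags, so the Runx genes were among the more unevenly spread genes and Cbfb was not. Runx1 exceeded 81.5% to 98.1% of such genes in a hashtag, and Runx3 exceeded 76.6% to 93.7%. Runx2 exceeded 86.1% to 96.4% in the hashtags where it reached 20 CPM and was not ranked in the others. Cbfb exceeded 5.61% to 60.5%.

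To count expressing cells at 1 depth, each cell was thinned to 10000 UMIs, and 34 to 212 shallower cells per hashtag were left out. Runx1 was detected in 29.2% to 80.5% of cells of a hashtag in experiment 1 (median 53.9%) and in 24.8% to 63.2% in experiment 2 (median 41.4%). Without thinning the medians were 80.8% and 73.2%. Runx3 was detected in 61.7% to 80.0% and 39.3% to 70.4% of thinned cells, with unthinned medians of 90.4% and 86.0%. Runx2 was detected in 8.66% to 29.7% and 8.76% to 28.5% of thinned cells, with unthinned medians of 43.1% and 35.9%. Cbfb was detected in 44.9% to 51.8% and 28.8% to 36.0% of thinned cells, with unthinned medians of 77.2% and 60.9%.

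Free RNA in droplets also gives UMIs, and a low reference is the mast or basophil-like cluster of experiment 2, where 2.70% of 111 thinned cells had a Runx2 UMI. The depth of that cluster was a median of 21645 UMIs. For Runx3 the lowest cluster was a granulocyte or monocyte-like one of experiment 2, at 23.9% of 117 thinned cells with a median depth of 19759 UMIs. In experiment 1 the lowest clusters had 7.68% for Runx2 and 53.3% for Runx3. For Runx1 the lowest clusters had 25.4% in experiment 1 and 9.80% in experiment 2, and for Cbfb 40.2% and 25.0%. None of these clusters is known to lack the gene, so the values are ceilings for free RNA rather than measures of it.

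The number of Runx genes seen in a cell followed these shares. All 3 were detected in 9.69%, 7.96%, 2.55%, 1.56%, 8.07%, 8.67%, 17.7% and 17.0% of cells of hashtags 1 to 8 in experiment 1. In experiment 2 the shares were 4.10%, 1.53%, 4.12%, 1.01%, 4.38%, 11.5%, 3.95% and 6.57%. Cells with none ran from 3.55% in hashtag 7 to 24.1% in hashtag 3 of experiment 1. In experiment 2 they ran from 8.85% in hashtag 8 to 43.0% in hashtag 4. The commonest states were Runx3 alone (median over hashtags 27.4% and 29.8%) and Runx1 with Runx3 (32.9% and 22.7%).

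Co-detection of a pair was set against the product of the 2 separate shares in the same hashtag, the value for genes detected independently. For Runx1 with Runx3 the observed shares in experiment 1 were 38.9%, 37.1%, 18.4%, 18.9%, 47.2%, 45.3%, 61.6% and 57.3%. The products were 38.4%, 36.8%, 18.2%, 18.6%, 47.0%, 43.9%, 60.8% and 57.1%. All 8 ratios were above 1 but by little, at 1.003 to 1.03. With the products formed within clusters the ratios were 0.991 to 1.03, and 7 of 8 were above 1. In experiment 2 the ratio ran from 0.969 to 1.14 (median 0.997) and was above 1 in 4 of 8 hashtags. Hashtag 4 gave the highest value there, with 11.1% of cells observed against 9.73%.

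The ratios of the remaining pairs lay on both sides of 1. The median ratio of Runx1 with Runx2 was 0.978 in experiment 1 and 0.982 in experiment 2, and that of Runx2 with Runx3 was 0.993 and 0.971. For Cbfb the median ratios with Runx1 were 1.01 and 0.987, with Runx3 1.004 and 1.01, and with Runx2 0.998 and 1.08. Cbfb was detected in a median of 47.7% of cells with a Runx1 UMI and 47.5% of cells without one in experiment 1, and in 30.7% and 32.2% in experiment 2. The widest range among the 6 pairs was that of Runx2 with Cbfb in experiment 2, from 0.886 to 1.24. No pair had a median ratio outside 0.971 to 1.08. Where both genes are seen in most cells, this ratio cannot rise far above 1. Unthinned counts were also correlated as residuals from the count expected at a cell's depth. The medians of r over hashtags lay between -0.0239 and 0.0733. Single hashtags ran from -0.101 (Runx2 with Runx3, hashtag 1) to 0.264 (Runx1 with Runx2, hashtag 2), both in experiment 2.

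**Figure D2:**
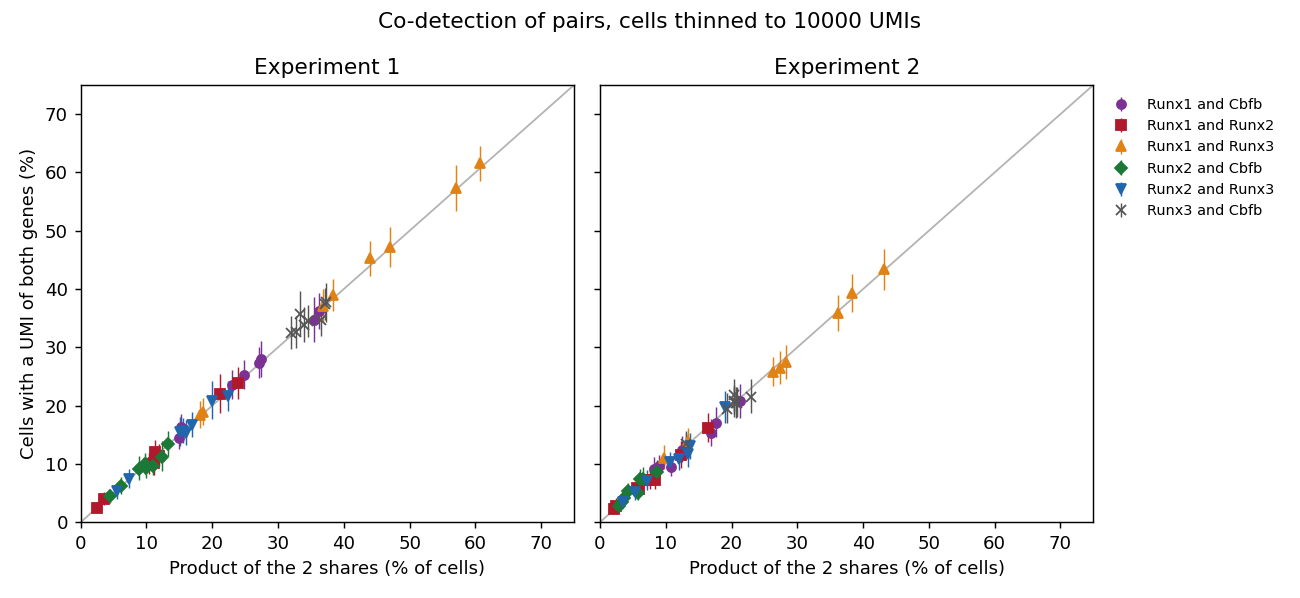
Share of cells with a UMI of both genes of a pair (vertical, exact 95% intervals) against the product of the 2 single shares (horizontal), both in percent of cells thinned to 10000 UMIs, 1 point per pair and hashtag. Points lie along the grey line of equality in both experiments, up to 61.6% for Runx1 with Runx3 in experiment 1.

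Cells were clustered without the 4 genes, and the levels of the 4 genes were then read in each cluster as a description. Runx3 was highest in the innate lymphoid-like clusters, which carry Il2rb and Klrd1, at 332.3 CPM in 169 cells of experiment 1 and 256.6 CPM in 203 cells of experiment 2. Over the 5 hashtags with 20 or more cells in the latter it ran from 52.0 to 400.2 CPM. The unnamed cluster 1 of experiment 2, which carries Il2rb and Klrd1 beside Cd8b1 and Trac, had 77.5 CPM. The dendritic-like cluster of experiment 2 followed at 210.5 CPM. Runx1 was highest in cluster 2 of experiment 1, at 342.7 CPM in 852 cells, and only 2 hashtags (7 and 8) had 20 or more cells there, so hashtag and cluster cannot be told apart. That cluster was left unnamed; its leading genes included Sh2d1a, Capg, Rgs1 and Id3.

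In the pro-T-like clusters Runx1 was at 127.5 CPM in experiment 1 and 126.7 CPM in experiment 2, with hashtag medians of 114.1 (47.2 to 212.7) and 92.6 CPM (51.0 to 205.2). In the mast or basophil-like clusters Runx1 was higher in experiment 1 (162.5 CPM) and lower in experiment 2 (79.1 CPM). Only 1 hashtag had 20 or more cells in the former, so hashtag and cluster cannot be told apart there. The stromal-like clusters had 147.0 (121.1 to 176.7) and 128.5 CPM (121.9 to 135.4). These intervals overlapped those of the pro-T-like clusters, 120.9 to 134.3 and 122.6 to 130.9 CPM. Runx2 was low in the pro-T-like clusters, at 10.6 and 8.53 CPM, but not only there. It was at 8.98 and 9.52 CPM in clusters 7 and 3 of experiment 1 and at 4.56 CPM in cluster 2 of experiment 2. It was highest in the stromal-like clusters, at 74.1 CPM in 16 cells and 58.3 CPM in 207 cells, and was next highest in experiment 1 in the granulocyte or monocyte-like cluster (37.8 CPM), cluster 2 (37.5 CPM) and cluster 1 (36.3 CPM), the last led by genes that include Cd34, Lmo2 and Mef2c. In experiment 2 cluster 13, where the same 3 genes were among the leading ones, was next at 38.3 CPM. The granulocyte or monocyte-like clusters of that experiment, numbers 10 and 11, had Runx2 at 28.2 and 5.40 CPM. Cbfb stayed between 50.7 and 84.7 CPM over the clusters of experiment 1 apart from cluster 8, a shallow cluster with a median of 3052 UMIs, at 110.1 CPM. In experiment 2 it lay between 27.3 and 56.7 CPM.

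**Figure D3:**
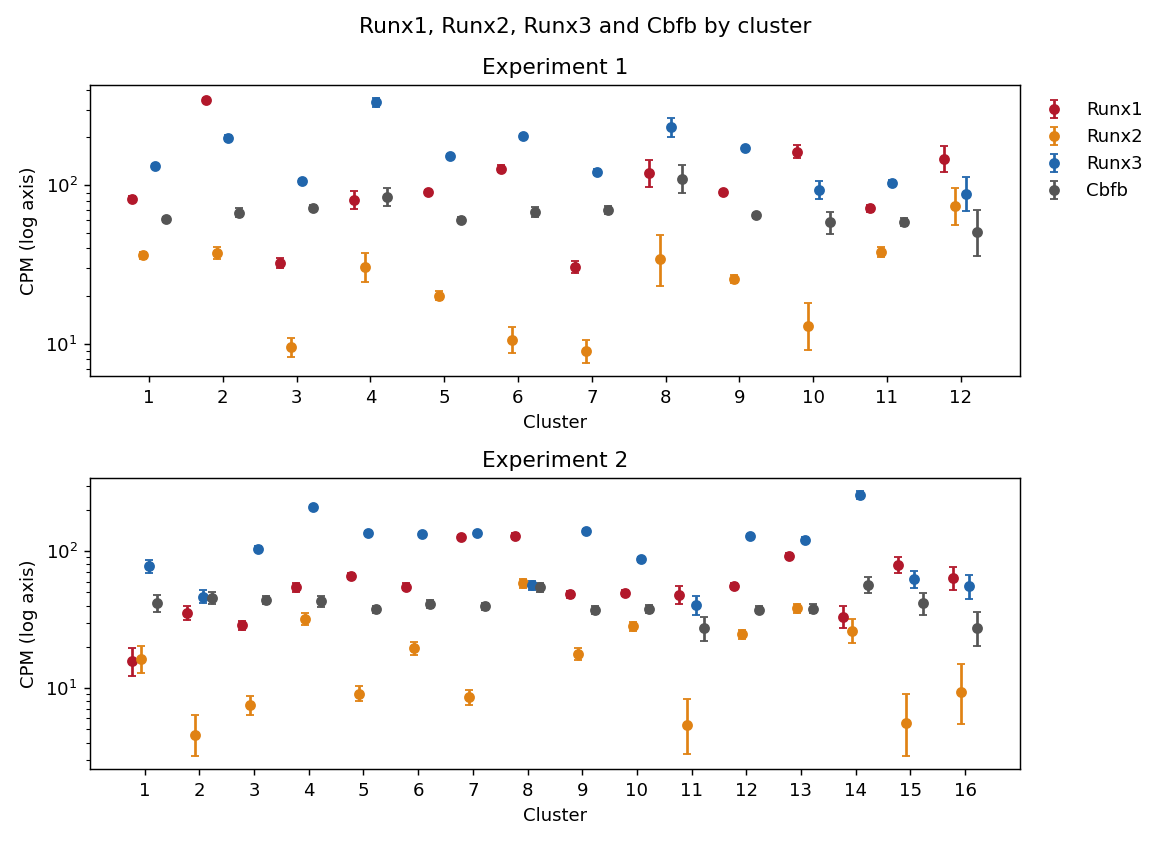
CPM of Runx1, Runx2, Runx3 and Cbfb in each cluster of the 2 experiments on log axes, with exact 95% Poisson intervals. Runx3 peaks in cluster 4 of experiment 1 (332.3 CPM) and cluster 14 of experiment 2 (256.6 CPM), both innate lymphoid-like. Runx2 is low in the pro-T-like clusters, number 6 of experiment 1 (10.6 CPM) and number 7 of experiment 2 (8.53 CPM). It is also low in others, such as cluster 2 of experiment 2 (4.56 CPM).

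Genes that go with the dose of a Runx gene were sought inside each hashtag, so that differences between cultures drop out. Cells of a hashtag were split into 5 classes of depth, and the cells of each class were ranked by Runx1 UMIs and divided into 3 equal groups, of which the top was compared with the bottom. Values are log2 ratios of CPM, with Runx1 left out of the totals and 0.5 UMIs added to each sum. A gene was called when its ratio had 1 direction in all 8 hashtags and its median reached 1.2-fold. This is a rule of size, with no p-value, since cells are not replicates. The Runx1 contrast itself ran from a median of 17.6 CPM in the bottom group to 156.7 CPM in the top group in experiment 1, and was 10.8 against 113.9 CPM in experiment 2. Cells with no Runx1 UMI were a median of 55.6% of the bottom group in experiment 1 (up to 97.7%). In experiment 2 they were 71.0% (up to 100%). The contrast is thus in part between cells with and without a detected molecule. Median depth (24409 and 24210 UMIs in experiment 1, 25954 and 26682 in experiment 2) and median mitochondrial share (4.50% and 4.67%, then 3.63% and 3.82%) were close between bottom and top groups.

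With Runx1 dose, 60 of 4957 genes were called higher in experiment 1 (1.21% of genes tested) and 13 lower (0.262%). In experiment 2, 163 were called higher (3.29%) and 12 lower (0.242%). The 163 became 87 without the 1% of cells richest in Runx1, 66 with a stricter hashtag call, 55 without cells holding other types' markers, 32 in thinned cells and 14 within clusters. The 12 became 33 without hashtag 4. In experiment 1 the 60 became 30 within clusters and 22 in thinned cells, and the 13 became 1 and 5. Of the 60 called higher in experiment 1, 32 (53.3%) were called higher in experiment 2, which are 19.6% of the 163, and the median ratio was above 0 for 60 of 60, against 47.1% of all genes. Of the 13 lower genes 1, Cd160, was called lower in experiment 2, and 13 of 13 had a median below 0, against 52.9% of all genes. Genes are named below from experiment 1 alone, so their values in experiment 2 were not used to choose them.

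The 10 genes that rose most with Runx1 included constant regions of the T-cell receptor gamma chain, Dntt and Il2ra. Tcrg-C2, a constant region of the T-cell receptor gamma chain, had a median log2 ratio of 0.92 in experiment 1 (range over hashtags 0.56 to 1.29) and of 0.68 in experiment 2 (0.28 to 2.05). Its median level rose from 99.9 to 189.3 CPM between the groups of experiment 1. Tcrg-C1 had 0.88 and 0.58, and Tcrg-C4 0.86 and 0.49. The Tcrg constant regions are close copies of each other, so reads may have been shared between them. All 3 were called in both experiments. In cells thinned to 10000 UMIs, Tcrg-C4 (0.48) lost its call in experiment 1, as did Tcrg-C2 (0.35) and Tcrg-C4 (0.32) in experiment 2.

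Il2ra encodes the CD25 chain, which is used to stage early T cells. It rose by 0.66 (0.42 to 0.91) in experiment 1 and 0.61 (0.31 to 1.66) in experiment 2. Its median level rose from 250.3 to 369.4 CPM and from 108.5 to 165.7 CPM. In thinned cells of experiment 2 Il2ra (0.48) and Fam20a (0.37) were not called, and in those of experiment 1 Akr1c12 (0.72) was not. Dntt, the enzyme that adds nucleotides at receptor gene joints, rose by 0.75 (0.48 to 2.12) and 0.82 (0.43 to 1.81). Socs2, an inhibitor of cytokine signalling, rose by 0.92 and then by 1.31 (0.53 to 1.70). Akr1c12, an aldo-keto reductase with close relatives in the genome, rose by 0.88 and 1.08. Fam20a rose by 0.75 and 0.80, and Rgcc by 0.65 and 0.48. Khdc1a had 0.74 in experiment 1 and 0.48 in experiment 2, where 7 of 8 hashtags were above 0 and the gene was not called.

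The called genes shared by both experiments also included Trdc, the delta chain constant region (0.56 and 0.78), Notch1, the receptor that the culture's ligand engages (0.29 and 0.32), Klf3 (0.59 and 0.75), Socs1 (0.46 and 0.35) and Cpa3, a mast cell protease also seen in early progenitors (0.41 and 0.41). These were picked from the 33 shared calls after their values were seen.

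The 10 named genes on the lower side were not called in experiment 2. Elane, Mpo, Prtn3 and Ctsg, the granule proteases and myeloperoxidase of neutrophil precursors, had median log2 ratios of -3.23, -1.57, -0.88 and -0.53 in experiment 1. Ms4a3, of the same lineage, had -1.58. In experiment 2 their medians were -1.38, -0.82, -0.57, -0.25 and -1.24, with 1 to 3 of 8 hashtags above 0 in each. Without hashtag 4 of experiment 2, Elane (-1.47), Mpo (-0.90) and Prtn3 (-0.69) were called lower there. Cells holding other cell types' markers were a median of 28.9% of the bottom and 21.3% of the top group in experiment 1, and 46.0% and 44.1% in experiment 2. With those cells left out, Elane in experiment 1 had a median of 0.36, Mpo -0.01 and Ms4a3 -0.31, none of them called. Pak1, Lmo2, Asns, Ccnd1 and Ggct had medians between -0.29 and -0.36 in experiment 1. In experiment 2 they lay between -0.08 and -0.24 and none was called.

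The 10 named higher genes had medians above 0 in both experiments without those cells, though Dntt and Fam20a were then not called in experiment 2: Tcrg-C2 was at 0.82 and 0.64, Il2ra at 0.55 and 0.52, Socs2 at 0.81 and 0.74. Forming the groups within clusters as well left 30 genes called higher in experiment 1 (24 of them among the 60) and 14 in experiment 2 (10 among the 163). Within clusters Tcrg-C2 was at 0.57 and 0.27, Dntt at 0.43 and 0.28, Socs2 at 0.64 and 0.47 and Akr1c12 at 0.50 and 0.37, all called in both experiments. Il2ra, Tcrg-C1, Tcrg-C4, Fam20a and Rgcc were called within clusters in experiment 1 (0.39 to 0.81) but not in experiment 2 (0.14 to 0.26).

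**Figure D4:**
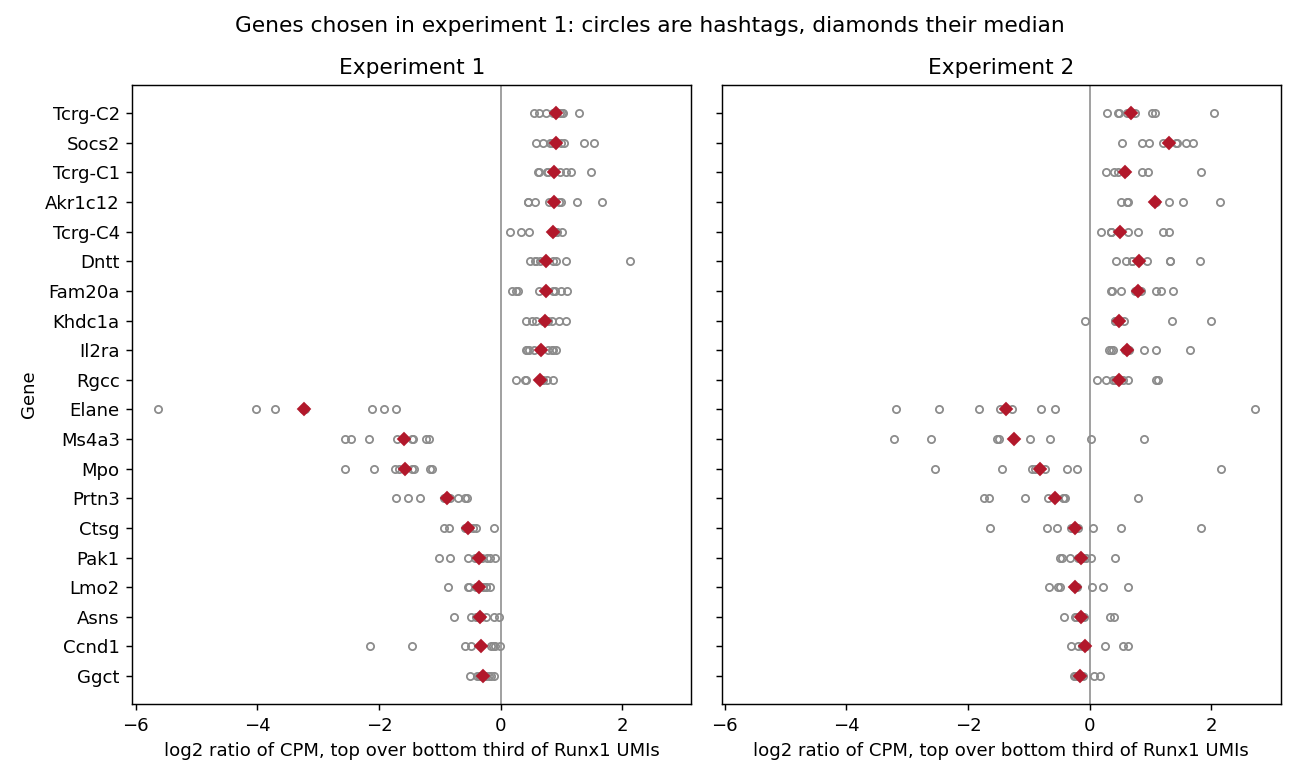
Log2 ratio of CPM between the top and bottom group by Runx1 UMIs for the 10 highest and 10 lowest called genes of experiment 1, with 1 circle per hashtag and a diamond at the median. The upper 10 genes stay right of 0 in both panels except 1 hashtag of Khdc1a, and the lower 10 have hashtags on both sides of 0 in experiment 2.

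Listed genes showed how far this reached. Of 27 T-lineage genes 13 passed the level filter; 5 were called higher in experiment 1 (Il2ra, Thy1, Lat, Notch1 and Tcf12) and 2 in experiment 2 (Il2ra and Notch1), beside 1.21% and 3.29% of all genes. The list medians were 0.26 and 0.14, beside 0.00 and -0.01 for all genes. Thy1, a surface marker of T cells, had 0.55 (0.33 to 0.81) and 0.36 (-0.42 to 1.08). Tcf7 and Gata3, the transcription factors that install the T-cell programme, had 0.13 and 0.15 in experiment 1 and 0.09 and 0.21 in experiment 2 and were not called. Of 23 cofactors of RUNX proteins 14 were tested, with none called in experiment 1 and 2 called higher in experiment 2, the acetyltransferase genes Kat6a (0.29) and Crebbp (0.28), beside the same shares. None of 5 tested innate lymphoid genes was called, beside the same shares for higher genes and 0.262% and 0.242% for lower ones.

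Of 12 tested progenitor and myeloid genes, Myb was called higher (0.27) and Mpo and Lmo2 lower in experiment 1. None was called in experiment 2. Of all genes 1.21% were called higher and 0.262% lower in experiment 1, and 3.29% and 0.242% in experiment 2. Of 18 cell cycle genes, Cdkn1a, the p21 inhibitor, was called higher (0.34) and Ccnd1 lower (-0.32) in experiment 1. None was called in experiment 2, and the shares of all genes are the same. The list median was 0.00 and -0.02, and Mki67 had 0.12 and 0.09.

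Of 12 ordered pairs of members per experiment, 0 were called in experiment 1 and 1 in experiment 2. The shares of all genes called in 1 direction ran from 0% to 1.8% over these contrasts in experiment 1. In experiment 2 they ran from 0% to 3.55%. Counts of 0 and 1 of 12 are too small to set the members apart from all genes. Between the top and bottom group by Runx1 UMIs, Runx3 differed by a median of 0.04 in experiment 1 and 0.08 in experiment 2, Cbfb by 0.02 and 0.04, and Runx2 by 0.08 and 0.27 (range -0.22 to 0.95). Grouped by Runx2 UMIs, Runx1 had -0.01 and 0.15 (higher in 3 and 7 of 8 hashtags) and Runx3 -0.04 and 0.02. The call was Runx2 with Cbfb UMIs in experiment 2, at 0.31 (0.14 to 0.43), against 0.01 in experiment 1. With Cbfb dose no gene was called in experiment 1, higher (0%) or lower (0%), and in experiment 2, 18 were called higher (0.363%) and none lower (0%).

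The same contrast was run on Runx2 and Runx3 UMIs; it uses the same cells, so the values are set side by side only. With Runx2 dose 89 genes were called higher (1.8%) and 59 lower (1.19%) in experiment 1, and 176 (3.55%) and 59 (1.19%) in experiment 2. Called in both experiments were 31 higher genes, which are 34.8% and 17.6% of the 2 lists, and 35 lower genes, 59.3% of each list. Ranked by the mean of the 2 medians, the higher ones began with Iigp1 (0.61 and 2.17), Pdgfrb (0.59 and 1.65), Ccnd1 and Nenf (0.32 and 1.41). Further down were transcription factors of progenitors and of the myeloid and dendritic lines: Irf8 (0.81 and 0.71), Mef2c (0.80 and 0.59), Lmo2 (0.65 and 0.39), Bcl11a (0.42 and 0.33) and Tcf4 (0.27 and 0.68). Of 12 tested progenitor and myeloid genes 7 were called higher in experiment 1 and 5 in experiment 2. The shares of all genes were 1.8% and 3.55%. Myb was called lower in experiment 2. No granulocyte or monocyte marker of 7 tested was called higher, and S100a8 and S100a9 were called lower in experiment 1. Of 5 tested dendritic markers 4 were called higher in experiment 1 and 0 in experiment 2. Cd34, a progenitor surface marker, had 0.46 and 0.41, and Ccnd1, a G1 cyclin, 0.64 and 1.11. In the bottom group for Runx2 nearly all cells had no Runx2 UMI (a median of 100% in each experiment), so this contrast is largely between cells with and without a detected molecule. Cells holding other cell types' markers were a median of 22.3% of the bottom and 27.7% of the top group for Runx2 in experiment 1, and 46.0% and 48.7% in experiment 2; their part in these ratios was not tested.

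Among the genes called lower with Runx2 in both experiments, Tcrg-C2 had -0.85 and -1.26, Tcrg-C1 -0.94 and -1.10, Il2ra -0.69 and -0.89, Rgcc -0.80 and -0.83, and Trdc -0.73 and -1.13. Of the 13 tested T-lineage genes 7 were called lower with Runx2 in experiment 1 and 8 in experiment 2, against 1.19% of all genes in each, and the list medians were -0.28 and -0.35. Called lower in both were Il2ra, Trbc1, Thy1 (-0.89 and -0.89), Lat (-0.69 and -0.50), Tcf7 (-0.50 and -0.58), Gata3 (-0.28 and -0.42) and Lck (-0.27 and -0.34). The examples for Runx2 and Runx3 were chosen after their values were seen.

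With Runx3 dose fewer genes were called: 23 higher (0.464%) and 17 lower (0.343%) in experiment 1, and 78 (1.57%) and 25 (0.504%) in experiment 2. The 8 called higher in both were Rgs1 (0.30 and 0.71), Gse1, Prelid2, Dnmt3b (0.31 and 0.50), Nfkb1 (0.29 and 0.43), Dusp5, Bmp2k and Rinl. The 7 lower in both were Prtn3 (-1.56 and -1.89), Zeb2 (-0.63 and -0.63), Gsr, Ap3s1, Asap1 and the neutrophil genes S100a8 and S100a9. Grouped by Runx3, Elane had -3.88 and -3.50 and was called lower in experiment 1 only. Mpo had -2.73 and -2.96 and was called in neither experiment. Of 7 tested granulocyte or monocyte markers 6 were called lower in experiment 1 and 3 in experiment 2. The shares of all genes called lower were 0.343% and 0.504%. Of 13 tested T-lineage genes Tcf7 was called higher in experiment 1, and Il2ra, Gata3 and Hes1 in experiment 2. The shares of all genes called higher were 0.464% and 1.57%. None of the 13 was called lower, and the list medians were 0.30 and 0.40, beside 0.01 and 0.04 for all genes. Cells holding other cell types' markers were a median of 28.0% of the bottom and 22.1% of the top group for Runx3 in experiment 1. In experiment 2 they were 55.9% and 42.1%. Their part in these ratios was not tested.

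**Figure D5:**
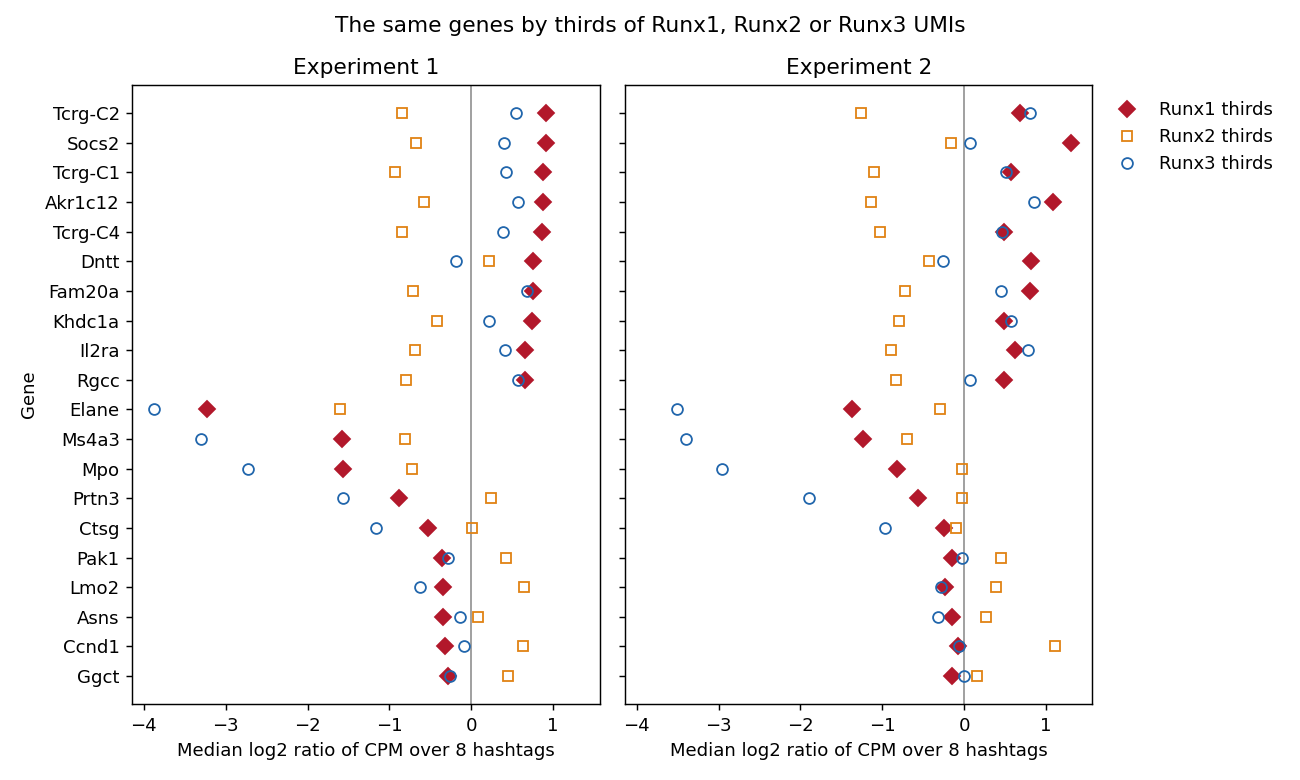
Median log2 ratio over 8 hashtags for the same 20 genes grouped by Runx1 (filled diamonds), Runx2 (open squares) and Runx3 UMIs (open circles), computed on the same cells. For Tcrg-C2 and Il2ra the Runx2 squares lie left of 0 and the other symbols right of it in both experiments, and for Elane the Runx3 circles lie farthest left.

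Likeness across hashtags is a coarser measure, given as a description of 8 points per experiment that share a library. Genes were ranked by the weaker of 2 correlations of log2(CPM + 1). Most like Runx1 were Hmox2 (r = 0.985 and 0.975), Dusp2 (0.973 and 0.983) and Cd47 (0.970 and 0.977), and most opposite were Zfp385a (-0.992 and -0.990), Cox5a (-0.990 and -0.987) and Gatad1 (-0.972 and -0.986). Dusp2, a phosphatase of MAP kinases, spanned 33.9 to 127.3 CPM and then 35.2 to 110.6 CPM. Zfp385a spanned 9.60 to 42.2 CPM and then 11.9 to 45.8 CPM.

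Runx2 was most like Tmod3, Sh3bp1 and Gm2a and most opposite to Tcf3 (-0.982 and -0.976), Ly6d (-0.980 and -0.976) and Myb (-0.984 and -0.976). Tcf3 encodes E proteins and Myb a progenitor transcription factor; Myb ran from 221.6 to 431.5 CPM in experiment 1. Runx3 was most like Ago2, Stard10 and Zfp326 (r of 0.93 or more) and most opposite to Cfap36, Tbc1d15 and Churc1. Genes among the most like Cbfb were Yipf4 (0.881 and 0.849) and Arf6 (0.848 and 0.924), and it was most opposite to Pdk1, Parvg and Cdt1. Among the members, Runx1 with Runx3 gave 0.907 and 0.779, Runx1 with Runx2 0.922 and 0.655, Runx2 with Runx3 0.880 and 0.720. Cbfb was negative with all 3 Runx genes, from -0.298 to -0.631.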

How the data were processed

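The authors deposited raw UMI counts per gene and barcode without normalization, and raw counts per barcode for 8 hashtags; whether the latter are UMIs or reads is not given in the sources used here. Per the submitters' processing notes, Cell Ranger 3.0.0 and the builds mm10 and GRCm38 were named. Barcodes passed with 500 or more genes and less than 10% of UMIs from mitochondrial genes (9332 of 9967 in experiment 1, 10214 of 10556 in experiment 2). A cell was assigned where its top hashtag had at least 50 counts and at least 3 times the second, which also served as the doublet filter (94.3% and 81.6% of kept cells). Summed UMIs per hashtag were 14502385 to 38067298 and 22272716 to 42684236. Shares carry Clopper-Pearson and ratios of CPM exact conditional 95% intervals.

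Genes of at least 20 CPM in both experiments were tested for dose, with ties broken by seed 1. Named genes were the members, the 10 highest and 10 lowest called genes of experiment 1, 3 genes most and least like each member, and listed genes; 1 of them is not reported here. The members and lists were chosen with earlier results of these data known. A cell held another type's markers with at least 3 detected and at least 20 UMIs of a list. Clusters used Leiden (python-igraph 0.11.9) and scikit-learn 1.9.0 and were named from marker lists; a cluster with conflicting leading genes stayed unnamed. Scripts ran on Python 3.11.15, and the dose step was tested on simulated data. TMM factors (edgeR 4.0.16) and DESeq2 1.42.0 size factors were alternatives only. The alternatives without the cells richest in Runx1 and without a hashtag for the dose counts were added after the data were seen.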

Additional observations from a re-analysis of the deposited data

Results flagged for a closer look

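In a group of 8 hashtags, a hashtag was marked when its gap to the nearest other exceeded Dixon's 95% critical share of the range. Of 38 sets of values 4 were marked, and chance marks about 1 in 20. The spread of Runx1 between cells stood out in hashtag 4 of both experiments, at 0.932 in experiment 1, where 1 cell had 25 Runx1 UMIs and the next 10, and at 6.27 in experiment 2, where 1 cell had 81 and the next 17. The co-detection ratio of Runx1 with Runx3 stood out in hashtag 6 of experiment 1, at 1.03, and in hashtag 4 of experiment 2, at 1.14. With the products formed within clusters these 2 ratios were 1.03 and 1.06.

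Kept barcodes whose top hashtag had under 50 counts were in no comparison. In 39 such barcodes of experiment 1, Runx2 was at 63.9 CPM (46.8 to 85.2), above the highest hashtag at 37.4 CPM. In 638 of experiment 2, Runx1 was at 129.7 CPM (123.5 to 136.1) and Runx2 at 44.5 CPM (40.9 to 48.3), above the highest hashtags at 120.9 and 37.0 CPM. Runx3 was low in the same barcodes, at 16.7 and 53.8 CPM. Stromal markers were held by 64.1% and 35.9% of these barcodes.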

How the results depend on the processing

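No paired analysis was possible because hashtags carry no condition and no result comes from a test between samples. The cause of each shift below was not tested unless the setting itself names it. A looser hashtag call gave a highest-to-lowest ratio of 5.88 for Runx1 in experiment 1, and a stricter call gave 3.90 in experiment 2. As means over cells the ratios in experiment 1 were 7.20 (Runx1), 3.87 (Runx2) and 1.67 (Runx3), and in experiment 2 they were 3.89, 3.77 and 2.40. Thinned cells gave 3.94 for Runx2 in experiment 1, and 3.87 for Runx2 and 2.28 for Runx3 in experiment 2. Runx3 in experiment 2 was 2.07 with TMM and 2.10 with DESeq2 factors. Leaving out 1 hashtag in turn gave 5.49 to 6.30 and 3.03 to 3.59 for Runx1, 2.70 to 3.18 and 2.09 to 3.26 for Runx2, 1.53 to 1.57 and 1.52 to 1.94 for Runx3, and 1.13 to 1.16 and 1.17 to 1.201 for Cbfb. No cell filter and a stricter one kept all 8 ratios inside their counting intervals.

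The median share of cells with all 3 Runx genes was 34.7% and 27.0% without thinning, and 2.15% in experiment 1 at 5000 UMIs. At 5000 UMIs the median co-detection ratio of Runx1 with Runx3 was 1.001 and 1.07, and in experiment 2 Runx1 with Runx2 gave 1.18 and Runx2 with Runx3 gave 1.06.

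The numbers of genes called higher and lower with Runx1 in experiment 1 were 26 and 4 at 50 CPM or more, 126 and 22 at 5 CPM or more, 30 and 1 within clusters, and 22 and 5 in thinned cells. Another seed gave 7 lower, and leaving out cells with other markers gave 5 lower. In experiment 2 they were 46 and 5 at 50 CPM, 452 and 28 at 5 CPM, 14 and 0 within clusters, 32 and 6 in thinned cells, 55 and 7 without cells with other markers, and 87 and 5 without the 1% of cells richest in Runx1. A stricter hashtag call gave 66 higher and a stricter cell filter 101 higher there. Leaving out 1 hashtag gave 53 to 79 higher and 8 to 21 lower in experiment 1, the 8 without hashtag 8 and the 21 without hashtag 5. In experiment 2 it gave 165 to 189 higher and 10 to 33 lower, the 33 without hashtag 4. The signs that turned were Elane in experiment 1 without cells with other markers (0.36), and in experiment 2 Ms4a3 within clusters (0.054) and without such cells (0.13), Ctsg within clusters (0.14), without such cells (0.15) and thinned (0.28), Lmo2 within clusters (0.031) and Ccnd1 with another seed (0.0062). The number of UMIs per cell limits detection of all 4 genes, as the shares with and without thinning show.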
